A study of Mus musculus with 9 samples.

Results

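Tnmd, Scx, Mkx, Prg4, Cilp and Cilp2 mark tendon and the lubricated surfaces around it, and were followed here in dissected gastrocnemius, a calf muscle that ends in the Achilles tendon. They were the rows of the gene count table carrying those symbols, 6 of 35275 genes, and all 6 passed the filter on low counts with 13901 genes in all. The 9 libraries of poly-A RNA came from 12-week-old female NSG mice, a strain without mature lymphocytes, with a wild type genotype label. Each mouse received extracellular vesicles (EVs, membrane-bound particles shed by cells) by tail vein, about 10 µg at a time, 2 times a week for 5 weeks, and muscle was collected 2 days after the last of 10 injections. The MCF-10A EV mice (4 libraries) received vesicles of MCF-10A, an immortal but non-malignant human mammary line, and the MDA-MB-231 EV mice (5 libraries) those of the human breast cancer line MDA-MB-231. Every mouse received human vesicles and none without them is analysed here, so it cannot be told which kind moved a gene. The labels do not say whether mice were pooled, and each numbered replicate was taken as 1 mouse.

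Tendon cells are set up by the transcription factors scleraxis (Scx) and mohawk (Mkx), which drive collagen genes and tenomodulin (Tnmd), a membrane glycoprotein of mature tendon cells. Lubricin (Prg4) is a mucin-like glycoprotein that lets tendon, synovium and cartilage surfaces glide. Cilp and Cilp2 encode secreted matrix proteins of the cartilage intermediate layer family, found in cartilage, tendon and other fibrous tissue, and human CILP binds and restrains TGF-beta. A muscle piece can hold these transcripts from its tendon ends, the aponeurosis and fascia, and their source in these pieces was not tested.

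Total counts ranged from 13943465 to 25195826 per library. The summed level of 6 muscle genes (Acta1, Ckm, Mylpf, Des, Tnnt3 and Myh4) was 143840 to 184390 CPM (counts relative to a library size scaled by TMM) in MCF-10A EV and 103460 to 128050 CPM in MDA-MB-231 EV. Muscle genes were abundant in every library, and the groups did not overlap in this sum. Compared gene by gene, the groups did not overlap for 1 of the 6, the abundant Myh4. All 6 had a log2 fold change below 0, as did 46.9% of all genes tested. The 6 values ran from -0.73 for Myh4 to -0.11 for Acta1, with a median of -0.24. MCF-10A EV replicate 1 stood apart for slow-fibre genes, with a summed level over 12 genes of 278 CPM, against 1093 to 4692 CPM in the other libraries. Transcripts of pancreatic islets were present in 5 libraries (MCF-10A EV replicates 2 and 3, MDA-MB-231 EV replicates 1, 3 and 4), with the insulin gene Ins2 at 44.4 to 93.6 CPM, and at 0.236 to 0.367 CPM in the other 4. Results are also given without each library and within these subsets.

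Tnmd, Prg4 and Cilp2 were higher in every MDA-MB-231 EV library than in any MCF-10A EV library, by 1.82-, 2.07- and 1.94-fold, and Scx, Mkx and Cilp overlapped between the groups. In edgeR's quasi-likelihood test with Benjamini-Hochberg adjustment over all genes, 0 of the 6 passed at an adjusted p under 0.05, as did 0% of all genes tested. At an unadjusted p under 0.05 there were 3 of the 6, all higher, where 5.95% of all genes tested were higher and 6.86% lower. DESeq2 called the same 3 higher at an adjusted p under 0.05, out of 5 with an adjusted p, where 0.765% of its genes were called higher and 2.3% lower, and limma voom called 0. Groups that did not overlap, with MDA-MB-231 EV higher, were found for 3 of the 6 and for 2.22% of all genes, and the opposite for 0 of the 6 and 3.17% of all genes. Of the 6 log2 fold changes 5 were above 0, as were 53.1% of all genes, and 1 was below 0, as were 46.9%, with a median of 0.61 against 0.020 over all genes. These p-values set the difference between groups against the spread between libraries. In a bulk sample, a difference in the number of tendon cells and one in RNA per tendon cell cannot be told apart.

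**Figure D1:**
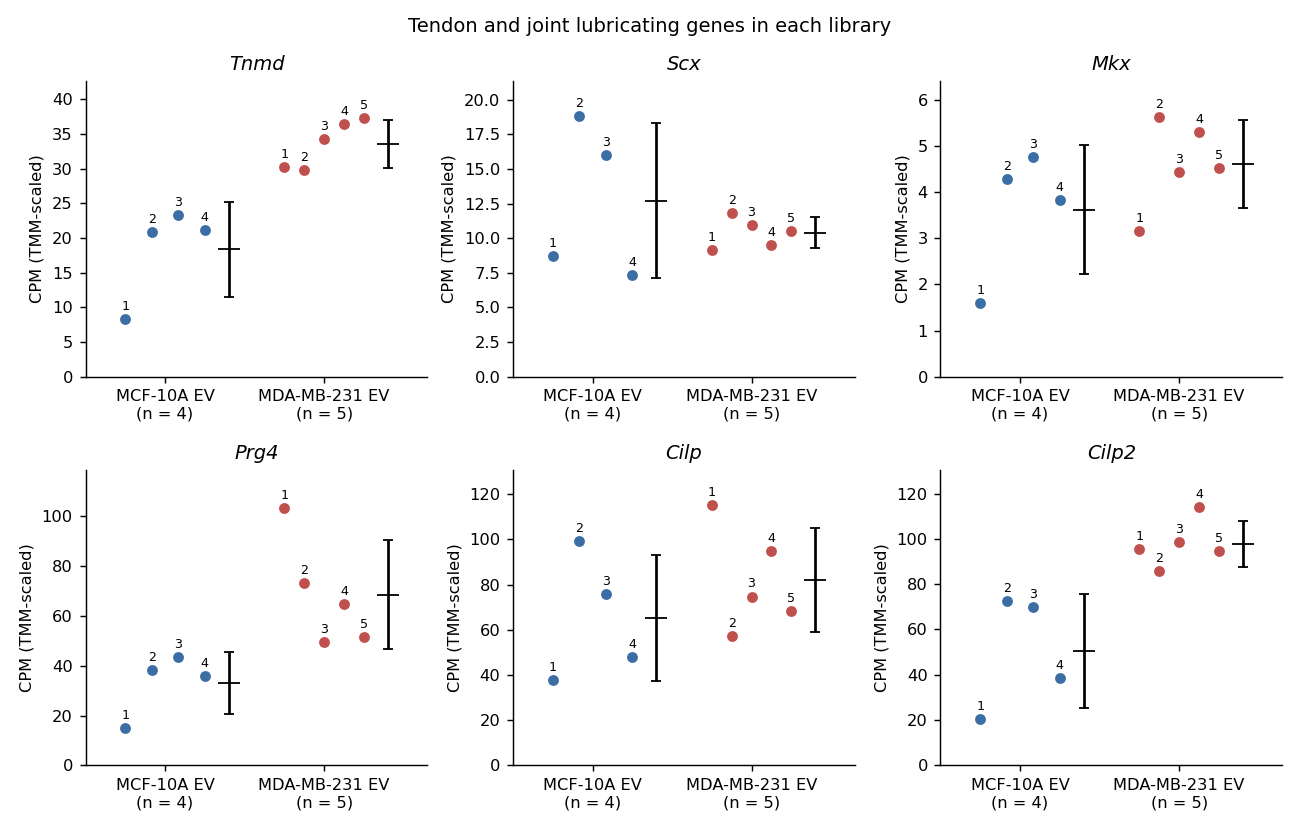
Level of each gene (CPM, TMM-scaled, vertical axis) in each library, with points numbered by replicate and bars showing the mean and SD of each group. Tnmd, Prg4 and Cilp2 separate the groups, from 8.25 to 23.3 against 29.7 to 37.3 CPM for Tnmd, and Scx, Mkx and Cilp overlap.

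Scx (ENSMUSG00000034161; mm10, chromosome 15, 76457438 to 76459468, plus strand), the basic helix-loop-helix factor that marks tendon progenitors, was at 8.69, 18.8, 16.0 and 7.35 CPM in replicates 1 to 4 of MCF-10A EV. In replicates 1 to 5 of MDA-MB-231 EV the level was 9.11, 11.8, 11.0, 9.47 and 10.5 CPM. The MCF-10A EV libraries spanned both extremes, with replicates 2 and 3 the highest of all 9 and replicate 4 the lowest. Mean levels of 12.7 ± 5.57 (SD, n = 4) and 10.4 ± 1.11 CPM (SD, n = 5) were found, for a log2 ratio between the groups of -0.29 ± 0.25 (SE; edgeR adjusted p = 0.643), with a 95% interval from -0.82 to 0.25. Its direction depended on which libraries were compared. Among the 5 with islet transcripts the log2 fold change was -0.82, and among the 4 without them it was 0.48, neither passing after adjustment (adjusted p = 0.742 and 0.594 in edgeR). Without MCF-10A EV replicate 2 it was -0.052 and without replicate 4 it was -0.48. The gene lies inside Bop1, a ribosome assembly gene on the opposite strand, and shares 0 of its 2007 exonic bases with Bop1 exons in GENCODE vM21, although its bounds there differ from those in the deposited table. Whether counting used strand is not given in the sources used here, so intronic Bop1 reads cannot be told apart from Scx reads. Bop1 was at 38.1 to 44.5 CPM in MCF-10A EV mice and 30.5 to 34.6 CPM in the MDA-MB-231 EV mice.

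Mkx (ENSMUSG00000061013; chromosome 18), a homeobox factor that maintains tendon collagen, was the least abundant, on 29 to 119 counts. It was at 1.60, 4.28, 4.76 and 3.83 CPM in replicates 1 to 4 of MCF-10A EV. It was at 3.15, 5.62, 4.42, 5.29 and 4.52 CPM in replicates 1 to 5 of MDA-MB-231 EV. The groups overlapped, and MCF-10A EV replicate 1 was below all other libraries. The means of 3.61 ± 1.40 CPM (SD, n = 4) and 4.60 ± 0.958 CPM (SD, n = 5) put the log2 ratio at 0.34 ± 0.28 (SE; edgeR adjusted p = 0.625). It was 0.096 without MCF-10A EV replicate 1, -0.083 among libraries with islet transcripts and 0.89 among those without.

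Tnmd (ENSMUSG00000031250; chromosome X, 133850980 to 133865577, plus strand) is the most used mark of mature tendon cells. It was at 8.25, 20.8, 23.3 and 21.1 CPM in replicates 1 to 4 of MCF-10A EV. In replicates 1 to 5 of MDA-MB-231 EV the level was 30.2, 29.7, 34.2, 36.4 and 37.3 CPM. Every MDA-MB-231 EV library was above every MCF-10A EV library, and 3 of the 4 MCF-10A EV libraries lay close together with replicate 1 well below them. Mean levels of 18.4 ± 6.84 (SD, n = 4) and 33.6 ± 3.48 CPM (SD, n = 5) were found, for a log2 ratio between the groups of 0.87 ± 0.24 (SE), with a 95% interval from 0.34 to 1.40. The edgeR adjusted p was 0.260 and the DESeq2 adjusted p 0.0260. Leaving out MCF-10A EV replicate 1 lowered the log2 fold change to 0.62 and its standard error to 0.12. The edgeR unadjusted p was then 0.000201, against 0.0042 over all libraries, and the edgeR adjusted p was 0.464. The log2 fold change was 0.60 among libraries with islet transcripts and 1.18 among those without.

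The bases before the transcription start of Tnmd and Cilp (RefSeq, GRCm38.p6, both plus strand) are shown because Scx binds E-boxes, and E-box letters (CANNTG, the same on both strands) are in capitals. Promoter sequences were matched for 3 of the 6 genes (Tnmd, Cilp and Cilp2). Tnmd is chrX:133850758-133850979, ended where the deposited gene begins, and Cilp is chr9:65264930-65265179.
Tnmd: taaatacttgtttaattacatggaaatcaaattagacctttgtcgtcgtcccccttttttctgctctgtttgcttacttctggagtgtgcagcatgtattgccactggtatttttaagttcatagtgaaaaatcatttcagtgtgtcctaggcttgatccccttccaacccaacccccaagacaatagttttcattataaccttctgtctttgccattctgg
Cilp: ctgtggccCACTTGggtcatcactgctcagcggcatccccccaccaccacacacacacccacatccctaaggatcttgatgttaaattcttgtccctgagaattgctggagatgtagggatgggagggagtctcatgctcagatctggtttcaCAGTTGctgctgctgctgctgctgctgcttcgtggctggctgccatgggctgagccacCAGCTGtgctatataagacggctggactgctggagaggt
In the 250 bases before the RefSeq start, Tnmd held 0 E-boxes, Cilp 3 and Cilp2 1, and 66.2% of 32851 promoters of that length held at least 1. CAGAC, a SMAD half-site letter run searched on both strands, was found 2 times for Cilp2 and 0 times for Tnmd and Cilp, and in 42.2% of all promoters. The Cilp2 bases searched lie inside the deposited gene, which begins further upstream, so they are not shown. A match describes letters only.

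Prg4 (ENSMUSG00000006014; chromosome 1, 150449412 to 150466165, minus strand), the lubricin gene, was at 14.9, 38.3, 43.3 and 35.9 CPM in replicates 1 to 4 of MCF-10A EV. In replicates 1 to 5 of MDA-MB-231 EV the level was 103, 73.1, 49.6, 64.8 and 51.5 CPM. The groups did not overlap, the closest being MCF-10A EV replicate 3 and MDA-MB-231 EV replicate 3. Mean levels of 33.1 ± 12.5 (SD, n = 4) and 68.4 ± 21.8 CPM (SD, n = 5) were found, for a log2 ratio between the groups of 1.05 ± 0.31 (SE; edgeR adjusted p = 0.280; DESeq2 adjusted p = 0.0218). It was 0.80 without MCF-10A EV replicate 1 and 0.85 with MDA-MB-231 EV replicate 1 left out, the library with the highest level. Its 3′ end overlaps Tpr on the opposite strand, with 204 of 4280 exonic bases shared (4.77%) in GENCODE vM21. Tpr, a nuclear pore gene, was at 69.3 to 94.5 CPM in MCF-10A EV mice and 58.8 to 71.6 CPM in the MDA-MB-231 EV mice.

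Of the paralogs Cilp and Cilp2, only the second had groups that did not overlap. Cilp2 (ENSMUSG00000044006; chromosome 8, 69880369 to 69887687, minus strand) was at 20.6, 72.7, 70.1 and 38.6 CPM in replicates 1 to 4 of MCF-10A EV. In replicates 1 to 5 of MDA-MB-231 EV the level was 95.7, 85.8, 98.5, 114 and 94.7 CPM. All 5 MDA-MB-231 EV libraries were above all 4 others, among which replicates 1 and 4 were low. Mean levels of 50.5 ± 25.2 (SD, n = 4) and 97.7 ± 10.2 CPM (SD, n = 5) were found, for a log2 ratio between the groups of 0.95 ± 0.31 (SE; edgeR adjusted p = 0.295; DESeq2 adjusted p = 0.0443). It was 0.69 without MCF-10A EV replicate 1, 0.52 among libraries with islet transcripts and 1.60 among those without.

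Cilp (ENSMUSG00000042254; chromosome 9, 65265180 to 65280605, plus strand) reached 37.8, 99.1, 75.9 and 48.0 CPM in replicates 1 to 4 of MCF-10A EV. In replicates 1 to 5 of MDA-MB-231 EV the level was 115, 57.2, 74.8, 94.9 and 68.2 CPM. The groups overlapped, since MCF-10A EV replicate 2 was above every MDA-MB-231 EV library but replicate 1. The means of 65.2 ± 27.8 CPM (SD, n = 4) and 82.0 ± 23.0 CPM (SD, n = 5) put the log2 ratio at 0.33 ± 0.29 (SE; edgeR adjusted p = 0.649), which ran from 0.14 to 0.60 as each library was left out. The difference in fold change between the paralogs was not tested, and their proportion per length is given with the ratios.

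**Figure D2:**
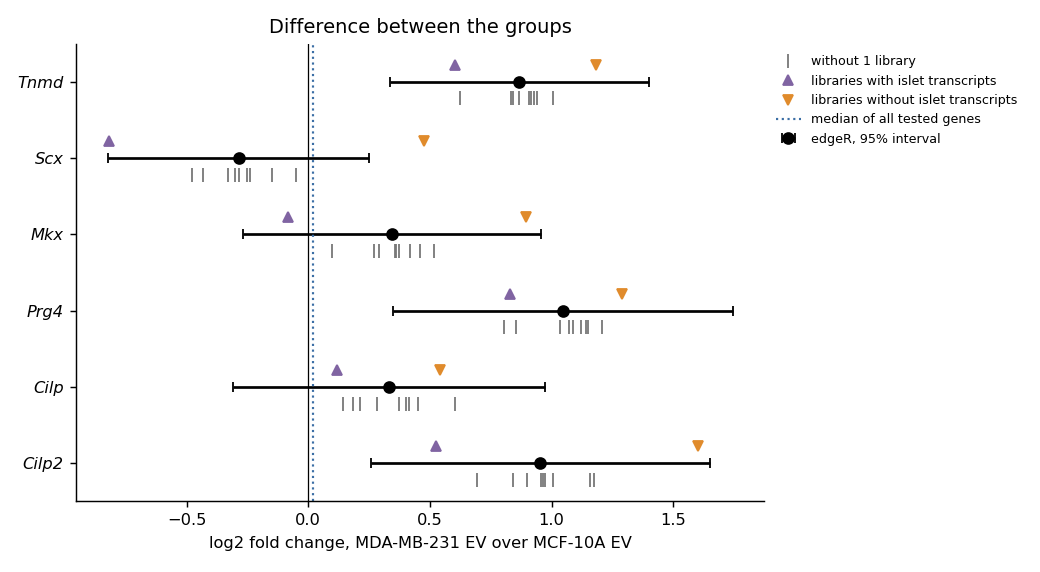
Log2 fold change (horizontal axis, above 0 where MDA-MB-231 EV is higher) for each gene, with edgeR's 95% interval, the values without each library in turn, and those within the libraries with and without islet transcripts. Estimates for Tnmd, Prg4 and Cilp2 stay above 0.5 in each of these fits, with lower 95% bounds of 0.34, 0.35 and 0.26 over all libraries. Scx lies at -0.82 in the subset with islet transcripts and 0.48 in the one without.

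Levels of different genes were compared per length, as FPKM. In MCF-10A EV the order was Cilp (14.9 ± 6.24 FPKM), Tnmd (13.0 ± 5.10), Cilp2 (11.2 ± 5.62), Scx (10.6 ± 4.62), Prg4 (7.43 ± 2.95) and Mkx (1.08 ± 0.436; SD, n = 4 throughout). Neighbours among the first 5 differed by less than the larger of their SDs, and Mkx lay below them. In MDA-MB-231 EV it was Tnmd (25.9 ± 2.75 FPKM), Cilp2 (23.6 ± 2.41), Cilp (20.5 ± 5.56), Prg4 (16.7 ± 5.22), Scx (9.53 ± 1.11) and Mkx (1.50 ± 0.330; SD, n = 5 throughout). Neighbours among the first 4 again differed by less than the larger of their SDs. Scx stood below Prg4 in every library of that group, at 8.24 to 11.1 against 11.9 to 24.9 FPKM. By mean FPKM over the 9 libraries, Tnmd exceeded 84.5% of all tested genes and Mkx 28.5%.

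Ratios within a library do not depend on scaling between libraries, and the proportions of these genes varied. The Scx to Tnmd ratio of FPKM was 1.25, 1.08, 0.818 and 0.414 in MCF-10A EV replicates 1 to 4 and 0.359, 0.475, 0.381, 0.310 and 0.336 in MDA-MB-231 EV replicates 1 to 5. MCF-10A EV replicates 1 to 3 were above all the other libraries, and replicate 4 lay within the range of MDA-MB-231 EV. The Cilp2 to Cilp ratio was 0.525, 0.706, 0.890 and 0.774 in MCF-10A EV and 0.800, 1.45, 1.27, 1.16 and 1.34 in MDA-MB-231 EV, where replicate 1 alone lay within the MCF-10A EV range. The Prg4 to Tnmd ratio was nearly the same in all 4 MCF-10A EV libraries, at 0.571 ± 0.0228 (SD, n = 4), although both genes were far lower in replicate 1 than in the rest. In MDA-MB-231 EV it was 0.666 ± 0.271 (SD, n = 5), from 0.438 in replicate 5 to 1.09 in replicate 1. These ratios were chosen after the values were seen and carry no test.

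**Figure D3:**
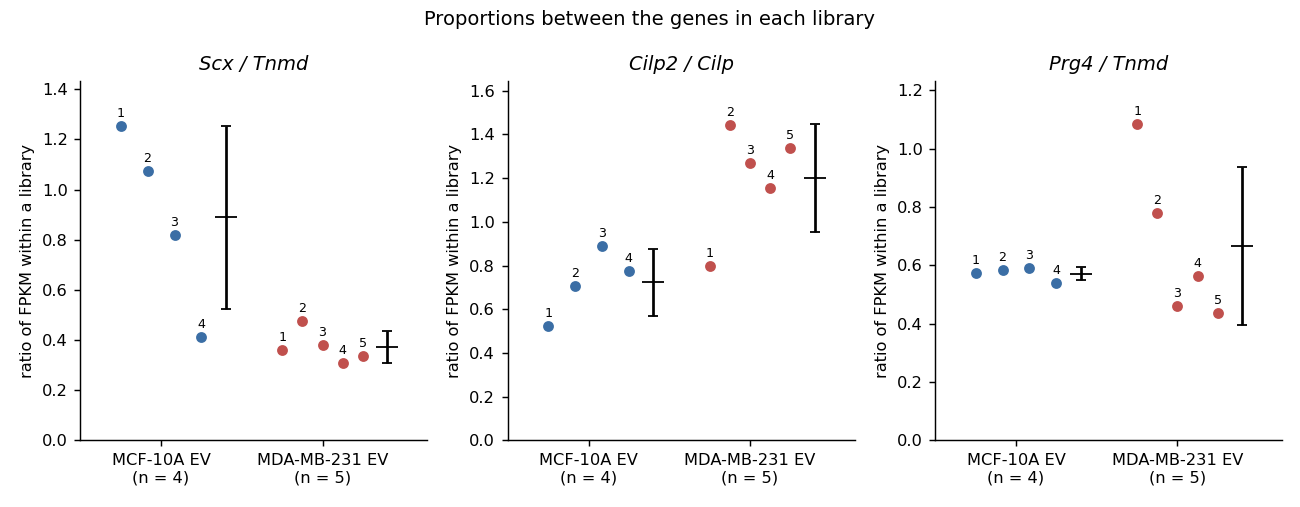
Ratio of FPKM between pairs of genes within each library (vertical axis), with points numbered by replicate and bars showing the mean and SD of each group. Scx to Tnmd is 0.310 to 0.475 in MDA-MB-231 EV and reaches 1.25 in MCF-10A EV, and Prg4 to Tnmd has an SD of 0.0228 in MCF-10A EV against 0.271 in MDA-MB-231 EV.

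MCF-10A EV replicate 1 was the lowest of the 9 libraries for 5 of the 6 genes, all but Scx. The highest library differed from gene to gene, MDA-MB-231 EV replicate 1 holding that place for Prg4 and Cilp. The summed level of the 6 genes was 91.9, 254, 233 and 155 CPM in replicates 1 to 4 of MCF-10A EV and 357, 263, 272, 325 and 267 CPM in replicates 1 to 5 of MDA-MB-231 EV. The coefficient of variation was larger in MCF-10A EV for all 6 genes, at 37.2% against 10.4% for Tnmd, 43.8% against 10.7% for Scx, 38.7% against 20.8% for Mkx, 37.8% against 31.8% for Prg4, 42.6% against 28.1% for Cilp and 50.0% against 10.5% for Cilp2. Without MCF-10A EV replicate 1 the order turned for Tnmd (6.18% in MCF-10A EV), Mkx (10.8%) and Prg4 (9.73%), and MCF-10A EV stayed above for Scx (42.5%), Cilp (34.4%) and Cilp2 (31.4%). Leaving out a library of MDA-MB-231 EV lowered its value most for Prg4 (18.7%) and Mkx (11.8%), both without replicate 1, and for Cilp2 (5.86%), without replicate 4. These values without a library were chosen after seeing the data.

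Over the 9 libraries, 4 of the 15 pairs had a Pearson correlation of log2 CPM with a two-sided exact permutation p under 0.05 after adjustment over the 15, and 0 pairs had such a Spearman correlation. The permutation ignored group, so a difference between groups that both genes share enters r and its p. Values centred within each group carry no p. Tnmd and Cilp2 had the closest relation, with r = 0.94 (exact permutation adjusted p = 0.00446) and rho = 0.85 (exact permutation p = 0.00607, adjusted p = 0.0911). It held at r = 0.89 over 7 libraries without MCF-10A EV replicates 1 and 2, the pair farthest from the median of Tnmd (exact permutation adjusted p = 0.0312), and at r = 0.87 with values centred within each group. Prg4 and Cilp2 followed with r = 0.87 (exact permutation p = 0.00212, adjusted p = 0.0159) and rho = 0.77 (exact permutation p = 0.0214, adjusted p = 0.160), and r = 0.73 over 7 libraries without replicate 1 of either group (exact permutation adjusted p = 0.264), so it no longer passed. Tnmd and Prg4 had r = 0.86 (exact permutation p = 0.00738, adjusted p = 0.0277) and rho = 0.72 (exact permutation p = 0.0369, adjusted p = 0.184), falling to r = 0.47 without MCF-10A EV replicates 1 and 2, so that relation rests on them. Cilp and Cilp2 had r = 0.80 (exact permutation p = 0.00708, adjusted p = 0.0277) and rho = 0.58 (exact permutation p = 0.108, adjusted p = 0.347), and r = 0.13 without MCF-10A EV replicates 1 and 4, on which it rests. The relation of Scx to Tnmd did not pass, with r = 0.094 (exact permutation p = 0.805, adjusted p = 0.863) and rho = 0.033 (exact permutation p = 0.948, adjusted p = 0.948), and r = 0.0071 without 2 libraries. Centred within groups, r was 0.72 for Prg4 and Cilp2, 0.69 for Tnmd and Prg4, 0.82 for Cilp and Cilp2 and 0.42 for Scx and Tnmd. Tnmd and Mkx did not pass, with r = 0.84 (exact permutation adjusted p = 0.064). Their r was 0.88 centred within groups and 0.26 without MCF-10A EV replicates 1 and 2. Scx and Cilp2, centred the same way, had r = 0.74 against 0.32 when pooled.

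**Figure D4:**
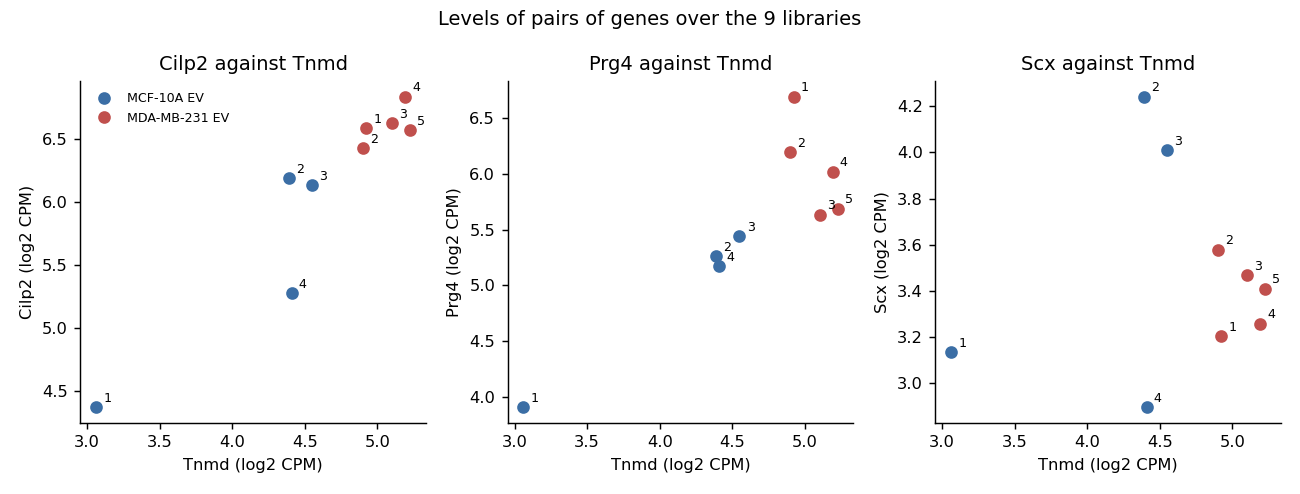
Level of Cilp2, Prg4 and Scx (log2 CPM, vertical axes) against that of Tnmd (log2 CPM, horizontal axes) in the 9 libraries, coloured by group and numbered by replicate. Cilp2 goes with Tnmd (r = 0.94). Over all 9 libraries Scx does not (r = 0.094, and 0.42 centred within groups), its highest points being MCF-10A EV replicates 2 and 3.

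The genes most like each of the 6 over the 9 libraries, by Pearson correlation of log2 CPM among 11927 others, included further tendon matrix genes for 4 of them. For Tnmd these were Fmod (fibromodulin, a collagen-binding proteoglycan; r = 0.96), Clec11a (0.96) and C1qtnf3 (0.96), and Cilp2 stood at place 10. For Cilp2 they included Wipf1 (r = 0.99) and Chad (chondroadherin, a matrix protein of cartilage and tendon; 0.97). For Prg4 they were Cryab (a small heat-shock protein; r = 0.97), Sptbn1 (0.96) and Thbs4 (a thrombospondin of tendon and muscle attachment; 0.95), with Fmod at place 6 and Comp at place 7. For Cilp they were Ablim1 (r = 0.96), Aspn (asporin, a small proteoglycan; 0.96) and Plxdc2 (0.95). Scx and Mkx had other company, with Zfp709 (r = 0.96), Zfp869 (0.93) and Larp4 (0.92) for Scx and Zfp939 (0.94), B3galt6 (0.93) and Rfwd3 (0.92) for Mkx. The tendon matrix gene most like Scx was Ptx4, at place 31. The 9 points include the difference between groups, and the highest of many correlations over so few points are high in any data.

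Other genes of tendon matrix, which tendon cells and fibroblasts secrete, were measured as a list of 26, all tested. In edgeR 0 passed. At an unadjusted p under 0.05, 8 were higher and 0 lower, against 5.95% and 6.86% of all genes. DESeq2 called 4 of 25 higher (Bgn, Fmod, Lum and Comp) and 0 lower, against 0.765% and 2.3% of all genes. The groups did not overlap for 4, all higher in MDA-MB-231 EV, against 2.22% of all genes. The log2 fold change was above 0 for 23, against 53.1% of all genes, with a median of 0.36. Fmod was at 489 ± 158 CPM in MCF-10A EV mice and 915 ± 51.3 CPM in the MDA-MB-231 EV mice. Comp, a cartilage and tendon matrix protein, was at 47.9 ± 23.0 and 111 ± 32.6 CPM, and Bgn and Lum, both small proteoglycans, had log2 fold changes of 0.86 ± 0.16 and 0.52 ± 0.14 (SE). The summed level of the list was 3502, 8489, 5966 and 4421 CPM in replicates 1 to 4 of MCF-10A EV and 6293 to 9840 CPM in MDA-MB-231 EV. Replicates 1 and 4 were low in this sum as they were for Cilp2, and MCF-10A EV replicate 2 lay within the range of MDA-MB-231 EV.

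Tenogenic regulators and members of the TGF-beta pathway, which induces Scx during tendon development, went both ways. Of 26 genes 25 were tested, with 0 passing in edgeR. At an unadjusted p under 0.05, 6 were higher and 5 lower, against 5.95% and 6.86% of all genes. In DESeq2 3 of 19 were higher and 1 lower, against 0.765% and 2.3% of all genes. The median log2 fold change was 0.071. The ligand Tgfb1 was at 9.79 ± 1.60 CPM in MCF-10A EV mice and 14.0 ± 1.39 CPM in the MDA-MB-231 EV mice, for a log2 ratio between the groups of 0.53 ± 0.13 (SE; edgeR adjusted p = 0.252; DESeq2 adjusted p = 0.0221). The co-receptor Tgfbr3 was at 31.9 ± 2.84 and 40.2 ± 0.950 CPM. Ltbp4, which holds latent TGF-beta in the matrix, was at 259 ± 69.6 and 388 ± 31.4 CPM. Six2, a homeobox gene of tendon and muscle connective tissue, was the other way, at 96.3 ± 24.3 and 61.4 ± 11.9 CPM, for a log2 ratio between the groups of -0.65 ± 0.19 (SE; edgeR adjusted p = 0.260; DESeq2 adjusted p = 0.0455).

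Most cartilage genes had low counts, and 6 of 16 passed the count filter. Of those, 0 passed in edgeR, and DESeq2 called 0 of the 1 it could adjust. At an unadjusted p under 0.05, 2 were higher and 1 lower, against 5.95% and 6.86% of all genes. Aggrecan (Acan), the main proteoglycan of cartilage, had 0 to 18 counts per library, and Matn1 had 0 in all. Col2a1, the main cartilage collagen, was at 2.24 ± 1.59 CPM in MCF-10A EV mice and 4.03 ± 1.12 CPM in the MDA-MB-231 EV mice, Cytl1 was at 2.79 ± 1.70 and 6.48 ± 3.69 CPM, and Col9a1 was lower in MDA-MB-231 EV, at 1.45 ± 0.738 and 0.721 ± 0.216 CPM. Col11a2 had a log2 fold change of 0.48 ± 0.24 (SE). The summed cartilage level was 40.8 to 79.9 CPM in MCF-10A EV mice and 54.4 to 103 CPM in the MDA-MB-231 EV mice, so the ranges overlapped.

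Genes of the myotendinous junction, where fibres attach to tendon, were a list of 8, all tested. Of these, 0 passed in edgeR and DESeq2 called 0 of the 5 it could adjust. At an unadjusted p under 0.05 there were 0, where 5.95% of all genes were higher and 6.86% lower. The median log2 fold change was 0.057. Col22a1, the collagen of the junction itself, was at 26.2 ± 7.27 CPM in MCF-10A EV mice and 25.5 ± 4.82 CPM in the MDA-MB-231 EV mice, for a log2 ratio between the groups of -0.034 ± 0.20 (SE), and was named for its role. Tln1, the adaptor that ties integrins to actin, had one of 0.11 ± 0.080, Col24a1 one of 0.38 ± 0.38, Slc24a2 one of 0.27 ± 0.36 and Lama2 one of 0.085 ± 0.14.

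Other marker lists went with these genes in some libraries and not in others. The summed slow-fibre level was 278 CPM in MCF-10A EV replicate 1, the library lowest for 5 of the 6 genes. It was 2516 to 4378 CPM in the rest of MCF-10A EV and 1093 to 4692 CPM in MDA-MB-231 EV. The 1093 CPM was in MDA-MB-231 EV replicate 4, where the 6 genes summed to 325 CPM, against 263 to 357 CPM over that group. The summed fast-fibre level over 9 genes was 142090 to 201690 CPM in MCF-10A EV mice and 101180 to 129200 CPM in the MDA-MB-231 EV mice, without overlap and in the direction opposite to Tnmd. Taken singly, 2 of these 9 genes had groups that did not overlap, the abundant Myh4 among them. Both were lower in MDA-MB-231 EV, against 3.17% of all genes. Markers of fibroblasts and fibro-adipogenic progenitors were lowest in MCF-10A EV replicate 2 at 995 CPM, a library where Scx and Cilp were high, and at 1828 to 2549 CPM in all others. Markers of endothelium were at 285 to 350 CPM in MCF-10A EV mice and 351 to 484 CPM in the MDA-MB-231 EV mice. Markers of adipocytes were at 117 to 476 and 193 to 808 CPM, and those of Schwann cells at 175 to 388 and 185 to 716 CPM, both overlapping. In edgeR 0 genes of these lists passed. At an unadjusted p under 0.05, 6 of 9 fast-fibre genes were lower and 0 higher, against 6.86% and 5.95% of all genes. Higher at that level were 5 of 7 endothelial and 2 of 10 fibroblast genes, with 0 lower in either list. Of 12 slow-fibre, 7 adipocyte and 6 Schwann cell genes, 0 had such a p. DESeq2, which called Tnmd, Prg4 and Cilp2, also called 4 fast-fibre genes lower (Myh4, Actn3, Mybpc2 and Atp2a1), against 2.3% of all genes. It called the endothelial gene Pecam1 higher, against 0.765% of all genes. Of the slow-fibre, fibroblast, adipocyte and Schwann cell genes it called 0. The part of these lists in the results was not tested.

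**Figure D5:**
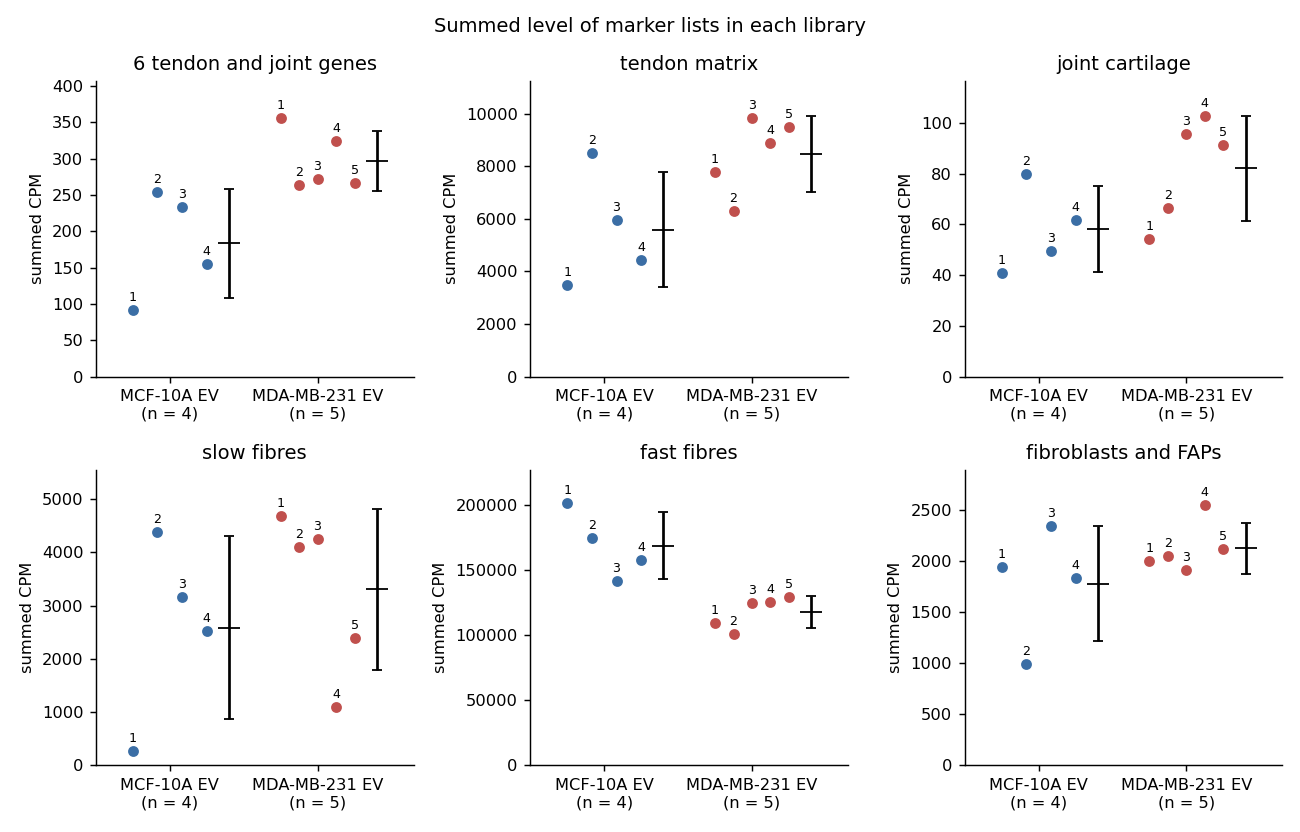
Summed level (CPM, vertical axes) of the 6 genes and of 5 marker lists in each library, numbered by replicate, with the mean and SD of each group. MCF-10A EV replicate 1 is lowest for the 6 genes (91.9 CPM), tendon matrix (3502 CPM) and slow fibres (278 CPM).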

How the data were processed

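Pieces of gastrocnemius of about 20 mg went into Trizol, and Novogene prepared poly-A libraries, per the labels' protocols. Whole-number gene counts were deposited by the authors on mm10. FPKM values, also deposited by the authors, equal the count over gene length and library sum within 0.1% for 100% of 161066 values, so they carry no scaling between libraries. Per the submitters' processing notes, HTSeq 0.6.1, STAR 2.5, TopHat, edgeR and DESeq2 were used, with no role given for any. The strand setting and the annotation release are not given in the sources used here.

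Counts were tested with edgeR 4.0.16 (quasi-likelihood, robust, TMM, group as the only term, two-sided) in R 4.3.3, after filterByExpr (minimum count 10, total 15), with Benjamini-Hochberg adjustment over 13901 genes. The standard error is the log2 fold change over the root of F. Log2 CPM used a prior count of 2. DESeq2 1.42.0 and limma 3.58.1 were alternatives, as were other scalings, filters, FPKM with pseudocounts of 1 and 0.1, the replicate number as a block, and subsets of libraries. Pearson and Spearman correlations used all 362880 pairings. The scripts were tested on simulated data. The 6 genes are named whatever their values, with up to 4 genes of smallest p per list described and the 3 most alike genes per member (mean CPM of at least 1, predicted genes left out). A result under this rule is not reported here. Col22a1, Acan, Matn1, Has2, Ptx4, Bop1 and Tpr were added after their values were seen. Members and lists were chosen with earlier results of these data known. Subsets by islet transcripts used Ins2 above 10 CPM. Exon overlaps and promoters came from GENCODE vM21 and RefSeq, both on GRCm38. Figures used matplotlib 3.10.9 in Python 3.11.15.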

Additional observations from a re-analysis of the deposited data

Results flagged for a closer look

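Tnmd in MCF-10A EV replicate 1 was at 8.25 CPM, far below the other 3 libraries of its group at 20.8 to 23.3 CPM. Its gap to the nearest was 0.836 of the range of the group, above Dixon's 95% critical value for 4 samples. Of 20 groups of values checked this was the only such library, and chance gives about 1 in 20.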

How the results depend on the processing

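The count of genes passing was 0 in the main test and 0 under all scalings, filters and model alternatives but DESeq2, which called 228, and 0 to 2 as each library was left out (2 without MCF-10A EV replicate 4). The count among the 6 genes was 0 except in DESeq2, where it was 3, and 0 to 0 as each library was left out. Directions held under every alternative for Tnmd (0.59 to 1.18), Prg4 (0.79 to 1.29), Cilp2 (0.52 to 1.60) and Cilp (0.12 to 0.60). Scx turned to 0.48 among libraries without islet transcripts and Mkx to -0.083 among those with them, and the cause was not tested. With library sizes left unscaled the median of all genes was 0.15, and Tnmd was at 0.99. Correlated pairs numbered 4 of 15, 7 on log2(FPKM + 1) and 2 without the pair of libraries farthest from the median, where fewer libraries enter. Of the 4, only Tnmd and Cilp2 then passed, and the other was Mkx and Prg4 (r = 0.92, exact permutation adjusted p = 0.0312, against r = 0.67 and adjusted p = 0.137 over all 9 libraries). Replicate numbers were not taken as pairs in the main test. Same-numbered libraries correlated at -0.30, -0.18, 0.038 and 0.080 in their deviations from the group means, and 0 of 4 matched its own number best. So few libraries cannot show whether mice of the same number shared a batch. With the replicate number as a block 0 genes passed, 0 of the 6 among them, and Tnmd was at 0.91, Prg4 at 1.16 and Cilp2 at 1.12. Mkx, on 29 to 119 counts, is the gene most limited by depth.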

Other observations

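Genes of hyaluronan metabolism and the synovial lining, which forms the other lubricant of joints, were measured as a list of 14. Of 14 genes 12 were tested, 0 passed in edgeR, and DESeq2 called 0 of the 5 it could adjust. At an unadjusted p under 0.05, 1 was higher and 0 lower, against 5.95% and 6.86% of all genes. Tlr4, an innate immune receptor, was at 2.85 ± 0.431 CPM in MCF-10A EV mice and 4.03 ± 0.427 CPM in the MDA-MB-231 EV mice, for a log2 ratio between the groups of 0.50 ± 0.18 (SE). Cd44, the hyaluronan receptor, was at 8.80 ± 2.73 and 11.3 ± 1.92 CPM. The hyaluronan synthase Has2 was at 1.07 ± 0.631 and 1.15 ± 0.616 CPM. Bone genes were few, with 4 of 7 tested, 0 passing in edgeR and 0 at an unadjusted p under 0.05. DESeq2 called 0 of the 1 it could adjust. The log2 fold change was above 0 for all 4 tested, as it was for 53.1% of all genes. The summed level of the bone genes was 11.6 to 23.4 CPM in MCF-10A EV mice and 21.5 to 27.5 CPM in the MDA-MB-231 EV mice. Most of that sum was Alpl, at 16.4 ± 5.20 and 20.5 ± 1.91 CPM.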
